A study of Mus musculus with 6 samples.

Results

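The 44 genes described here encode the machinery that copies DNA in S phase: the replicative helicase MCM2-7, its loaders and activators, the primase and polymerases, the sliding clamp and its loader, the enzymes that supply deoxynucleotides, the factors that rebuild chromatin behind the fork, and the E-type cyclins. They were chosen by gene symbol, with earlier results of these data known, and all 44 were found among the 22298 entries of the deposited table. RNA was measured by RNA-seq in ocular lenses of C57BL/6 mice at postnatal day 0, in 3 libraries labelled Fyco1-/- and 3 libraries of wild type (WT), each made from 10 pooled lenses. How the Fyco1-/- allele was made is not given in the sources used here. Fyco1 encodes an adaptor that couples autophagosomes to kinesin motors. Its own level was 4.61, 4.59 and 4.87 FPKM in Fyco1-/- lenses and 5.40, 5.21 and 5.11 FPKM in WT lenses (libraries A, B and C, the order used throughout), a difference that was not called (log2 -0.15, limma adjusted p = 0.273), so the gene's level does not settle the genotype labels. The comparison asks whether transcripts of the replication machinery differ between newborn lenses of the 2 genotypes.

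Before a cell replicates its DNA, the origin recognition complex with CDC6 and CDT1 loads the ring of 6 MCM proteins on origins. CDC45 and the GINS complex then turn this ring into a moving helicase, and PCNA, loaded by replication factor C, holds the polymerases on the template. Transcription of most of these genes rises ahead of S phase under E2F factors. In the lens, dividing cells lie in the epithelium that covers the anterior surface, most of them near the equator, whereas fibre cells leave the cell cycle as they differentiate and make up most of the tissue.

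In Fyco1-/- lenses 5 replication genes fell and none rose. They were Mcm6, a subunit of the helicase ring, Pcna, the sliding clamp, Rrm2, the small subunit of ribonucleotide reductase, Tk1, the cytosolic thymidine kinase, and Uhrf1, which brings the maintenance methyltransferase to newly replicated DNA. The WT means were 1.58 to 2.31 times the Fyco1-/- means. A gene was called where limma, fitted to log2(FPKM + 0.5) of every gene with a mean of at least 0.5 FPKM, gave a Benjamini-Hochberg adjusted p under 0.05. Of the 44 genes 38 reached that level, each with both genotype means over 0.5 FPKM. The 5 called lower are 13.2% of those 38, where 5.02% of all 12001 tested genes were called lower, and the 0 called higher stand beside 3.42% of all tested genes (8.43% were called in either direction). Because the list was chosen with earlier results known, these shares describe it and are no test of it. Of 47 tested replication genes outside the list, 0 were called lower and 1 was called higher. By unadjusted p under 0.05, 14 of the 38 were lower and 1 was higher, beside 15.1% and 9.32% of all tested genes. By the same measure 15 of the 47 outside the list were lower and 2 were higher. Log2 fold changes were below 0 in 31 of the 38 and above 0 in 7, with a median of -0.20. Over all tested genes 59.9% were below 0 and the median was -0.04.

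The start regions of these genes are shown because E2F factors act there and because some called and some uncalled members hold the same words. Windows of 250 bases before to 50 bases after the RefSeq start (GRCm38.p6) were at hand for 36 of the 44 genes. Capitals mark the E2F words TTTCCCGC, TTTCGCGC, TTTGCCGC and TTTGGCGC, searched on both strands, where neighbouring words may overlap. Mcm6 is at chr1:128359656-128359955 (minus strand), Uhrf1 at chr17:56304063-56304362 (plus strand, the downstream of its 2 windows), Mcm5 at chr8:75109259-75109558 (plus strand), Mcm3 at chr1:20820263-20820562 (minus strand) and Pcna at chr2:132253131-132253430 (minus strand). Each is printed 5′ to 3′ on the strand of its gene.
Mcm6: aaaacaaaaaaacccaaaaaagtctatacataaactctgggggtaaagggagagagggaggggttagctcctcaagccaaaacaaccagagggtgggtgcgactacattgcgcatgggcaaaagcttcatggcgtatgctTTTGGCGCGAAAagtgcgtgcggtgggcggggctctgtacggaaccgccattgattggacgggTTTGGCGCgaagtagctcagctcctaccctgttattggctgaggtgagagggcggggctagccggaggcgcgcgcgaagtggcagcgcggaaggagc
Uhrf1: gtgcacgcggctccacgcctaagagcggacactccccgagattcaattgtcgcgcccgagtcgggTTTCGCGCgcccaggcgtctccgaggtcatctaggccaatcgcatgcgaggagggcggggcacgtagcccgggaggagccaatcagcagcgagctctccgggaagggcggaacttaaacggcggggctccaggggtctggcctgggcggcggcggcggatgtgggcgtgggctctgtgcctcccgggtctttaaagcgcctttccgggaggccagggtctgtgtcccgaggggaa
Mcm5: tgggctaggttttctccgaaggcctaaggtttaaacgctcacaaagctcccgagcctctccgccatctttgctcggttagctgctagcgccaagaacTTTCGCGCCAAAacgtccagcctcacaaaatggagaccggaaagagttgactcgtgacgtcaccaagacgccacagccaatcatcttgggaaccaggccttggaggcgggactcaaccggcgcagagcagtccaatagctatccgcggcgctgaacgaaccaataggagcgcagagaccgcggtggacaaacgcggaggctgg
Mcm3: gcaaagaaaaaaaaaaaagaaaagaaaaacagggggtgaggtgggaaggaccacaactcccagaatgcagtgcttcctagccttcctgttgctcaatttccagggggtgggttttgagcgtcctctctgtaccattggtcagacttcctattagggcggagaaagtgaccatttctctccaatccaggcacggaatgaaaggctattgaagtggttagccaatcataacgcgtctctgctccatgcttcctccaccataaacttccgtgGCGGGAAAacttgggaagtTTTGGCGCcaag
Pcna: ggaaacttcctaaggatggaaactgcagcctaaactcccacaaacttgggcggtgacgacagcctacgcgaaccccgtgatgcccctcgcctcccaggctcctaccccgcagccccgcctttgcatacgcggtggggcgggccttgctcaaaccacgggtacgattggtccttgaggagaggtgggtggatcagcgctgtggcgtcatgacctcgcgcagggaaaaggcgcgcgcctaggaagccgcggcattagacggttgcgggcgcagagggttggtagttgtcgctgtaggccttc
An E2F word was found in the windows of 14 of the 36 genes (38.9%), beside 4.68% of the 8710 tested genes that have a window and 2.60% of all 27025 genes with one. Mcm6 held 3 such words, beginning at positions -110, -106 and -47 from the start, the first and second overlapping, and Uhrf1 held 1, at -185. Mcm5 held 2 overlapping words and Mcm3 held 2 separate ones, and neither gene was called. Of the 5 genes that fell, Mcm6 and Uhrf1 held a word and Pcna, Rrm2 and Tk1 did not, which says only that these letters are not in these windows. Of the 26 genes that were tested, not called and have a window, 9 held one (34.6%). Over those 9 the log2 fold changes ran from -0.49 (Lig1) to 0.35 (Rfc3), with Mcm5 (-0.02) and Mcm3 (-0.07) nearest 0. The letters CCAAT, on either strand, were found in 22 of the 36 genes (61.1%) and in 42.8% of the tested genes with a window. A match is a string of letters and not a site shown to be bound.

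All values are FPKM, fragments per kilobase of gene scaled to mapped reads. Comparing levels between genes depends on the gene lengths used and on how shared reads were counted, which are not given in the sources used here. The table holds no counts, but its smallest steps place the depth at an estimated 18820000 to 19500000 reads in Fyco1-/- libraries and 17060000 to 20040000 reads in WT libraries. Crystallin transcripts took 70.2% to 71.7% of the summed FPKM, so the libraries hold the defining transcripts of lens, and the 44 replication genes together took 0.0171% to 0.0216%. They were low: the median over the 44 genes was 1.601 FPKM in Fyco1-/- lenses and 2.13 FPKM in WT lenses, and 34 of the 44 lay below the median of all tested genes, 4.33 FPKM. In WT lenses 11 genes averaged under 1 FPKM, 24 were between 1 and 5, 6 were between 5 and 10 and 3 were above 10. The called genes rest on an estimated 54 to 656 reads per library. Over the 38 tested genes the 95% interval of a log2 fold change reached 0.15 to 0.46 to each side, with a median of 0.29. Because 0.5 FPKM is added, a given fold change of a low gene reads smaller on this scale than that of a high one.

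**Figure D1:**
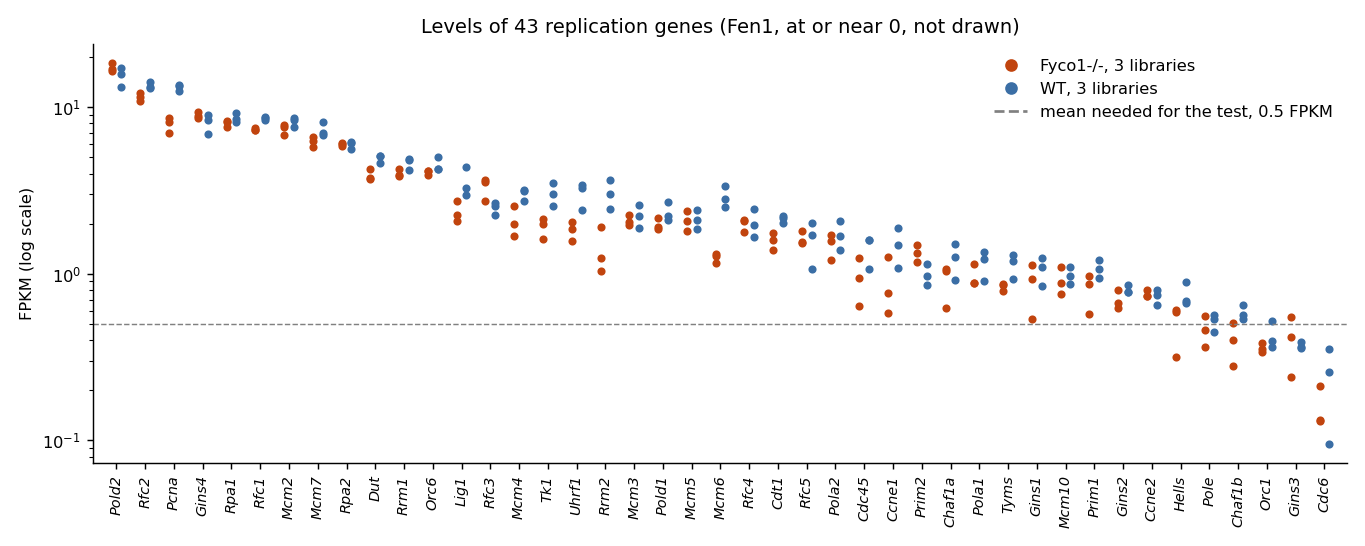
FPKM on a log axis for 43 replication genes, ordered by their mean over 6 libraries, with 1 point per library (Fyco1-/- left of WT). Pold2, Rfc2 and Pcna are at the high end, 5 of the genes drawn have means under the 0.5 FPKM needed for the test (dashed line), and Pcna and Mcm6 show the clearest gaps between the genotypes.

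The 6 MCM2-7 genes, whose products form the helicase ring in equal numbers, did not change alike. Mcm6 (ENSMUSG00000026355, GRCm38 chromosome 1, 128331590 to 128359664) stood at 1.28, 1.32 and 1.16 FPKM in the Fyco1-/- libraries and 2.82, 3.35 and 2.52 FPKM in the WT libraries. Every Fyco1-/- value was under 1.4 FPKM and every WT value over 2.5 FPKM, so the genotypes lay far apart. Its log2 difference in the limma fit was -0.95 with an SE of 0.12 (adjusted p = 0.00107). Mcm4 stood at 1.69, 2.55 and 1.98 FPKM in Fyco1-/- lenses and 3.13, 3.18 and 2.75 FPKM in WT lenses. Its groups did not overlap either, but it was not called (log2 -0.46, 95% interval -0.76 to -0.17, adjusted p = 0.0603). Without Fyco1-/- B it was called (log2 -0.59, limma adjusted p = 0.0266), and without any other single library it was not.

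Mcm7 stood at 6.59, 5.74 and 6.31 FPKM in Fyco1-/- lenses and 6.99, 6.86 and 8.14 FPKM in WT lenses, and was not called (log2 -0.22, adjusted p = 0.158). For Mcm2, the most abundant of the 6, the values were 7.78, 7.64 and 6.78 FPKM in Fyco1-/- lenses and 8.64, 8.41 and 7.57 FPKM in WT lenses. The groups of Mcm2 overlapped, and its interval ran from -0.32 to 0.04. Mcm3 had 2.26, 1.97 and 2.04 FPKM in Fyco1-/- lenses and 2.23, 2.58 and 1.87 FPKM in WT lenses. Mcm5 had 2.06, 2.39 and 1.80 FPKM in Fyco1-/- lenses and 2.10, 2.42 and 1.86 FPKM in WT lenses, so that each letter had nearly the same value in both genotypes. The intervals were -0.34 to 0.20 for Mcm3 and -0.31 to 0.26 for Mcm5, and the sign of both depends on the scaling.

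As a share of the summed MCM2-7 FPKM, Mcm6 made up 5.93% ± 0.156 in Fyco1-/- lenses and 11.2% ± 1.19 in WT lenses (SD, n = 3 each; exact permutation p = 0.1, two-sided, the smallest that 3 against 3 libraries can give). Mcm2 made up 35.0% ± 1.11 in Fyco1-/- lenses and 31.8% ± 1.41 in WT lenses, and its groups did not overlap (exact permutation p = 0.1). For Mcm3, Mcm4, Mcm5 and Mcm7 the shares of the genotypes overlapped. These shares restate the levels given above and were compared after those were seen. The sum over the 6 genes was 20.1 to 21.7 FPKM in Fyco1-/- lenses and 24.7 to 26.8 FPKM in WT lenses.

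**Figure D2:**
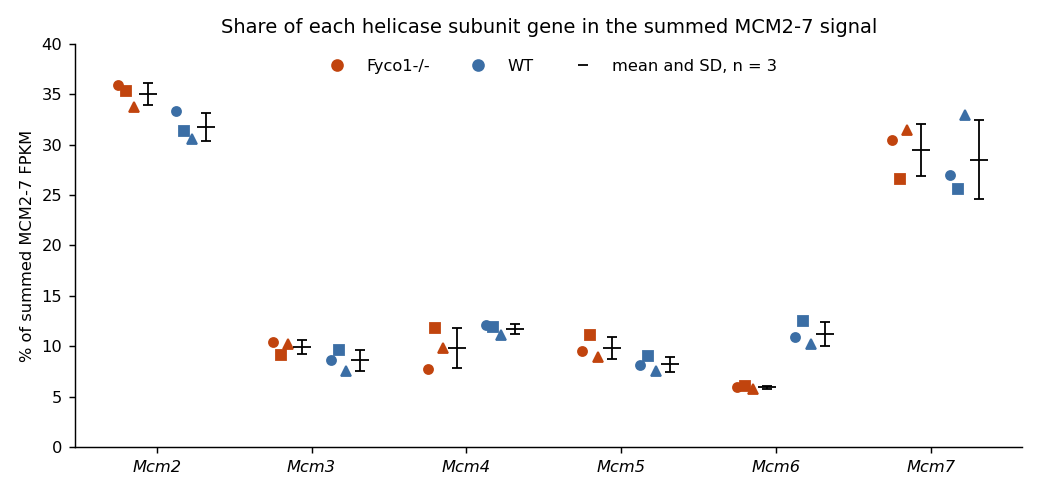
Share of each MCM2-7 gene in the summed MCM2-7 FPKM, in percent, by library (circle A, square B, triangle C), with mean and SD to the right of each group and Fyco1-/- left of WT. Mcm6 sits at 5.78% to 6.09% in the 3 Fyco1-/- libraries and at 10.2% to 12.5% in the 3 WT libraries.

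Of the 4 genes for origin recognition and licensing, Orc6 and Cdt1 were tested and neither was called. Cdt1, whose product loads the MCM ring together with CDC6, had 1.38, 1.59 and 1.75 FPKM in Fyco1-/- lenses and 2.22, 2.16 and 2.02 FPKM in WT lenses. Its groups did not overlap (log2 -0.35, limma adjusted p = 0.0948). Orc6, a small subunit of the origin recognition complex, also had non-overlapping groups, but the closest values were 4.15 FPKM in Fyco1-/- B and 4.25 FPKM in WT B. Orc1, its large ATPase subunit, and Cdc6 were under the level needed for the test. Orc1 had 0.340 to 0.384 FPKM in Fyco1-/- lenses and 0.362 to 0.524 FPKM in WT lenses, and Cdc6 had 0.131 to 0.213 FPKM in Fyco1-/- lenses and 0.0957 to 0.353 FPKM in WT lenses.

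Genes that turn the loaded ring into a helicase were not called. Cdc45 had 0.941, 1.24 and 0.638 FPKM in Fyco1-/- lenses and 1.06, 1.603 and 1.61 FPKM in WT lenses (log2 -0.43, limma adjusted p = 0.19), with overlapping groups. Mcm10, which helps to start the helicase, had a log2 fold change of -0.08. The GINS complex holds its 4 subunits in equal numbers, yet Gins4 averaged 8.96 FPKM in Fyco1-/- lenses and 8.12 FPKM in WT lenses, while Gins1, Gins2 and Gins3 each stayed under 1.3 FPKM in every library. Gins4 therefore made up 82.2% ± 3.48 of the summed GINS FPKM in Fyco1-/- lenses and 78.2% ± 3.26 in WT lenses (SD, n = 3 each; exact permutation p = 0.3). Gins3 was not tested for its low level. Of the 4097 exon bases of Gins2, 2758 overlap Gse1 on the opposite strand, so its level beside the others is uncertain.

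Of the 7 primase and polymerase genes 6 were tested and none was called. Prim2, the large primase subunit gene, was one of only 2 tested members whose Fyco1-/- values all lay above the WT values, with 1.17, 1.34 and 1.48 FPKM in Fyco1-/- lenses and 0.860, 0.977 and 1.15 FPKM in WT lenses (log2 0.29, limma adjusted p = 0.215). Prim1, the catalytic primase subunit gene, had a log2 fold change of -0.28. Pold2, an accessory subunit of polymerase delta and the most abundant of the 44 genes, had 16.6 to 18.4 FPKM in Fyco1-/- lenses and 13.3 to 17.2 FPKM in WT lenses. Its catalytic partner Pold1 averaged 1.97 FPKM in Fyco1-/- lenses and 2.34 FPKM in WT lenses. Pola1 and Pola2 of polymerase alpha had log2 fold changes of -0.17 and -0.15, and Pole, the catalytic subunit of polymerase epsilon, averaged 0.460 FPKM in Fyco1-/- lenses and 0.519 FPKM in WT lenses and was not tested.

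Pcna, which encodes the ring-shaped clamp that tethers polymerases and many repair and chromatin factors to DNA, had the smallest adjusted p of the 44 genes. Pcna (ENSMUSG00000027342, GRCm38 chromosome 2, 132249162 to 132253314) stood at 8.67, 8.20 and 7.001 FPKM in the Fyco1-/- libraries and 13.4, 13.6 and 12.5 FPKM in the WT libraries. The highest Fyco1-/- library was well below the lowest WT library. Its log2 difference in the limma fit was -0.70 with an SE of 0.08 (adjusted p = 0.000746). The clamp loader genes went in both directions without a call. Rfc1 and Rfc2 had tight, non-overlapping groups, Rfc1 with 7.30 to 7.51 FPKM in Fyco1-/- lenses and 8.34 to 8.79 FPKM in WT lenses (log2 -0.21, adjusted p = 0.0866). Rfc2 had 10.9 to 12.2 FPKM in Fyco1-/- lenses and 13.1 to 14.2 FPKM in WT lenses (log2 -0.22, adjusted p = 0.0765). Rfc3 lay higher, with 2.72, 3.66 and 3.57 FPKM in Fyco1-/- lenses and 2.25, 2.54 and 2.68 FPKM in WT lenses (log2 0.35, adjusted p = 0.111), and was called without Fyco1-/- A. Rfc4 and Rfc5 had log2 fold changes of -0.01 and 0.04.

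Pcna has a processed pseudogene, Pcna-ps2 (GRCm38 chromosome 19, 9283380 to 9284160), which matches the longest Pcna transcript at 99.2% over 781 bases, and reads of such copies may be split or discarded. Pcna-ps2 is listed at 1.31, 2.40 and 2.72 FPKM in Fyco1-/- lenses and at 0.140, 0.0792 and 0.137 FPKM in WT lenses. It was called higher (log2 2.05, limma adjusted p = 0.000298), opposite to Pcna, and was looked up after the values of Pcna were seen. In estimated reads Pcna-ps2 held 19, 37 and 40 in Fyco1-/- lenses and 2, 1 and 2 in WT lenses, beside 319 to 392 reads of Pcna in Fyco1-/- lenses and 523 to 656 in WT lenses. Adding both, the estimate was 411, 420 and 359 reads in Fyco1-/- lenses and 551, 658 and 525 reads in WT lenses, without overlap (exact permutation p = 0.1, the smallest possible). Discarded reads are in neither count, so this sum cannot size the effect of read assignment. The part of read assignment in the difference of Pcna was not tested.

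Genes that bind single strands and join Okazaki fragments included Lig1, the replicative DNA ligase, which had 2.07, 2.75 and 2.27 FPKM in Fyco1-/- lenses and 3.28, 4.35 and 2.96 FPKM in WT lenses. The groups of Lig1 did not overlap, and it narrowly missed the threshold (log2 -0.49, limma adjusted p = 0.0652). Of the single libraries left out, only leaving out WT C gave a call of Lig1 (adjusted p = 0.0492). Rpa1 and Rpa2, subunits of the single-strand binding protein, had intervals of -0.27 to 0.06 and -0.16 to 0.17, which exclude a change as large as that of Pcna. Fen1, the flap endonuclease, is listed at 0.0447, 0.0863 and 0.0443 FPKM in Fyco1-/- lenses and at 0.0246, 0 and 0 FPKM in WT lenses, or at most an estimated 4 reads. Of its 2422 exon bases 1909 overlap Gm10143 on the opposite strand, which is itself listed at no more than 0.0897 FPKM, and how the authors' counting treated strand and shared bases is not given in the sources used here. The level of Fen1 is therefore uncertain here, and no fold is given.

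Nucleotide supply held 2 of the 5 calls. Rrm2 (ENSMUSG00000020649, GRCm38 chromosome 12, 24708241 to 24714146), the subunit of ribonucleotide reductase that limits its activity to S phase, stood at 1.04, 1.91 and 1.25 FPKM in the Fyco1-/- libraries and 3.65, 2.998 and 2.44 FPKM in the WT libraries. Its log2 difference in the limma fit was -0.90 with an SE of 0.18 (adjusted p = 0.0153), although both groups were spread widely. Rrm1, the large subunit, had 4.26, 3.84 and 3.92 FPKM in Fyco1-/- lenses and 4.90, 4.83 and 4.19 FPKM in WT lenses and was not called (log2 -0.19, adjusted p = 0.235). The ratio of Rrm2 to Rrm1 was 0.244, 0.498 and 0.318 in Fyco1-/- lenses and 0.745, 0.620 and 0.580 in WT lenses (exact permutation p = 0.1, the smallest possible).

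Tk1 (ENSMUSG00000025574, GRCm38 chromosome 11, 117815526 to 117826092), which salvages thymidine, stood at 2.13, 1.99 and 1.63 FPKM in the Fyco1-/- libraries and 3.01, 3.5 and 2.56 FPKM in the WT libraries. The groups did not overlap (log2 -0.54, SE 0.13, limma adjusted p = 0.0312). Dut, the dUTPase that keeps uracil out of DNA, had 3.70 to 4.25 FPKM in Fyco1-/- lenses and 4.65 to 5.13 FPKM in WT lenses and just missed the threshold (log2 -0.31, adjusted p = 0.0585). Tyms, thymidylate synthase, had 0.792, 0.857 and 0.867 FPKM in Fyco1-/- lenses and 1.19, 1.30 and 0.931 FPKM in WT lenses. Its groups did not overlap, by a narrow gap, and it was not called (log2 -0.29, adjusted p = 0.237). All 5 nucleotide supply genes had log2 fold changes below 0.

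Among the chromatin genes Uhrf1 (ENSMUSG00000001228, GRCm38 chromosome 17, 56303321 to 56323486) stood at 1.58, 2.06 and 1.86 FPKM in the Fyco1-/- libraries and 3.28, 3.40 and 2.42 FPKM in the WT libraries. The groups did not overlap (log2 -0.59, SE 0.14, limma adjusted p = 0.026). Hells, a chromatin remodeller needed for DNA methylation, had 0.316 to 0.610 FPKM in Fyco1-/- lenses and 0.665 to 0.8996 FPKM in WT lenses and was not called (adjusted p = 0.29). Chaf1a and Chaf1b encode subunits of the chromatin assembly factor that deposits histones at the fork. Chaf1a averaged 0.910 FPKM in Fyco1-/- lenses and 1.23 FPKM in WT lenses (adjusted p = 0.351), and 4648 of its 8854 exon bases overlap Ubxn6 on the opposite strand. Chaf1b averaged 0.395 FPKM in Fyco1-/- lenses and 0.584 FPKM in WT lenses, under the level for the test.

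The E cyclins activate CDK2 at the entry into S phase. Ccne1 had 0.769, 1.25 and 0.579 FPKM in Fyco1-/- lenses and 1.08, 1.89 and 1.49 FPKM in WT lenses, with overlapping groups (log2 -0.55, 95% interval -1.01 to -0.09, limma adjusted p = 0.137). Ccne2 had 0.741, 0.732 and 0.805 FPKM in Fyco1-/- lenses and 0.798, 0.646 and 0.745 FPKM in WT lenses (log2 0.04, interval -0.27 to 0.34). The estimated difference was thus well below 0 for Ccne1 and near 0 for Ccne2. The ratio of Ccne1 to Ccne2 was 1.04, 1.71 and 0.719 in Fyco1-/- lenses and 1.36, 2.93 and 2.004 in WT lenses, and its groups overlapped (exact permutation p = 0.2). Of the 12 ratios computed, all after the levels were seen, this one and that of Tk1 to Dut had p = 0.2 and the others p = 0.1 by the exact permutation test, so none could pass a threshold of 0.05.

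**Figure D3:**
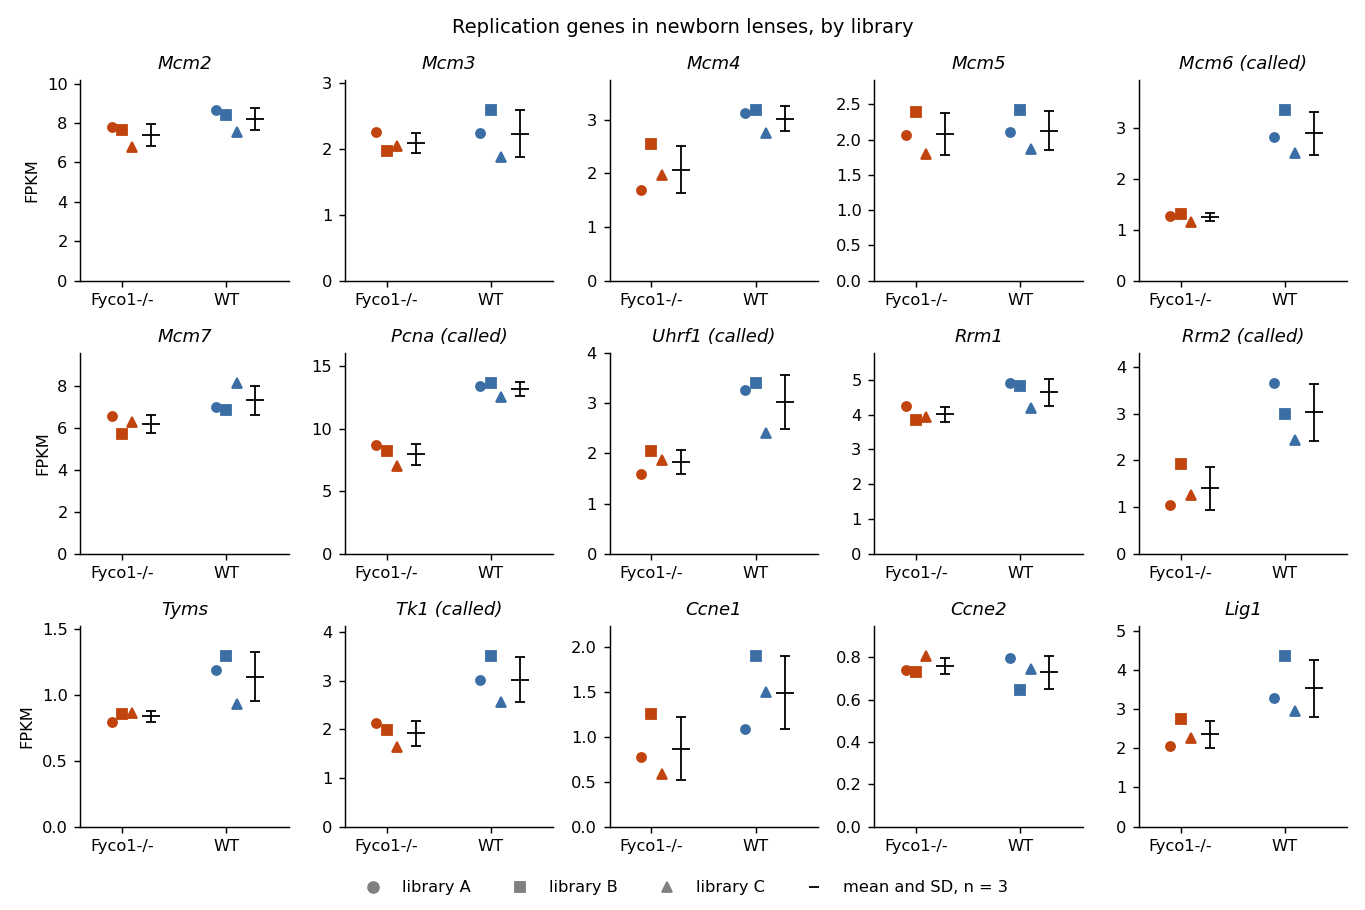
FPKM of 15 replication genes in each library (circle A, square B, triangle C), with mean and SD beside each group and Fyco1-/- left of WT; each panel has its own axis from 0. The 5 called genes show separate groups, as do Mcm4, Mcm7, Tyms and Lig1, which were not called, while Mcm3, Mcm5 and Ccne2 overlap.

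Counting groups that do not overlap, 15 of the 38 tested genes (39.5%) had every Fyco1-/- value below every WT value, beside 18.6% of all tested genes, and 2 (Prim2 and Rfc3) had every Fyco1-/- value above, beside 11.1%. The 15 include the 5 called genes. The authors' deposited table lists 6 of the 44 genes as lower at an adjusted p under 0.05 and none as higher, beside 4.15% and 5.22% of all entries that have an adjusted p there. In the authors' deposited table these are the 5 named above and Lig1 (adjusted p = 0.0443). None of the 44 genes lies on chromosome 9, where Fyco1 lies, and they spread over 14 chromosomes.

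**Figure D4:**
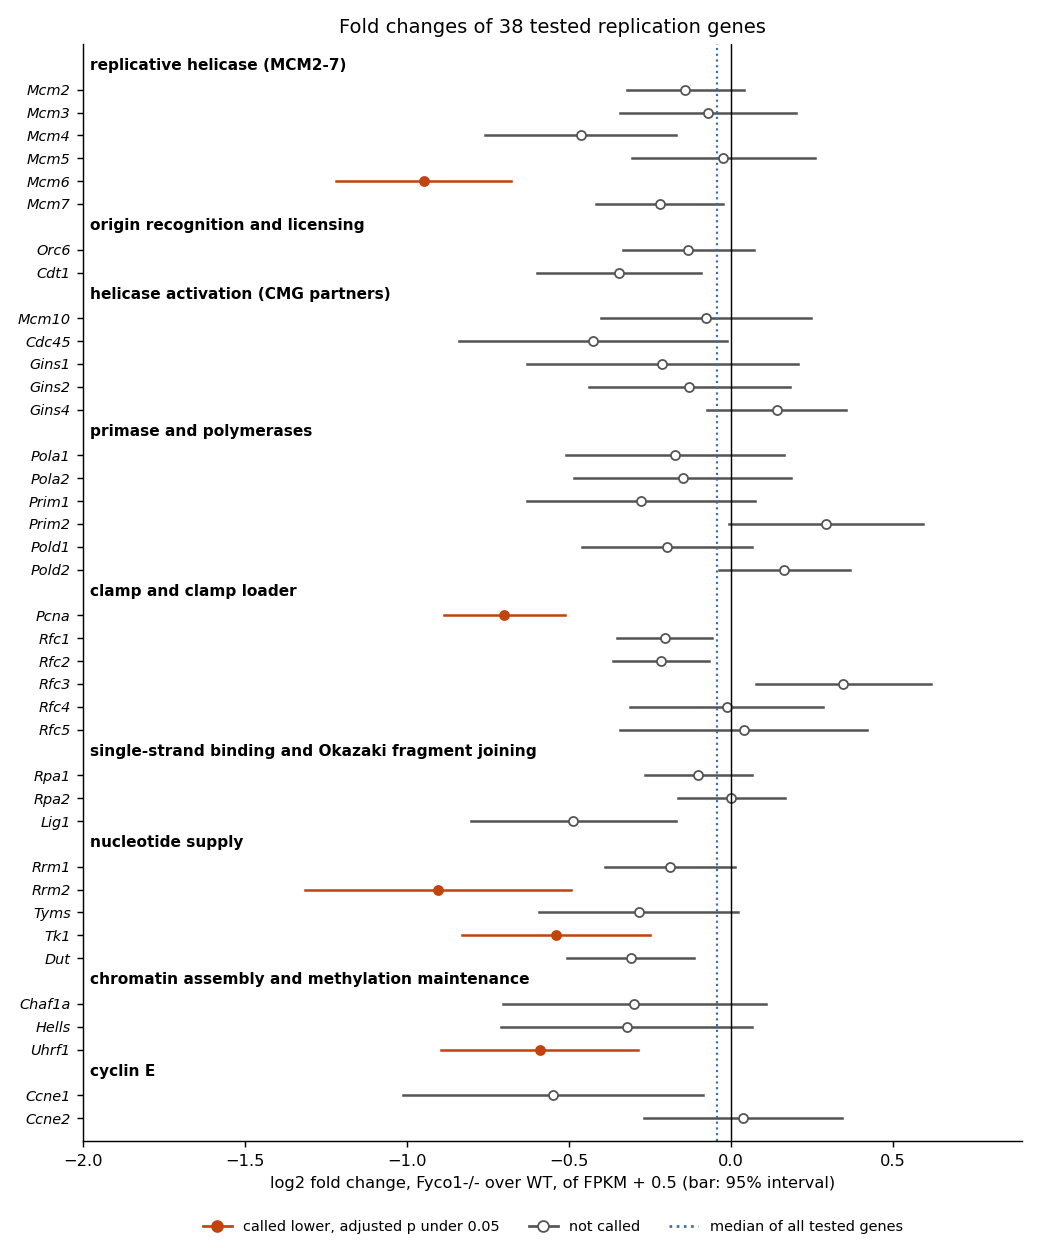
Log2 fold changes of FPKM + 0.5, Fyco1-/- over WT, for the 38 tested replication genes by role, with 95% intervals from limma; filled points are called. Most points lie left of 0, Mcm6 and Rrm2 lie near -0.9, and Gins4, Pold2, Prim2 and Rfc3 lie farthest right, among 9 genes right of the median of all tested genes (dotted line, -0.04).

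Replicate libraries varied together over these genes. WT C had the lowest of the 3 WT values in 26 of the 38 tested genes (68.4%), beside 50.7% of all tested genes, and WT B had the highest in 22 (57.9%), beside 37.7%. Among Fyco1-/- libraries A was the lowest in 18 of the 38 (47.4%), beside 27.2% of all tested genes. The genes are therefore not independent readings of a library. Summed over the 44 genes, the level was 130.8, 135 and 129.8 FPKM in the Fyco1-/- libraries and 154, 161 and 145 FPKM in the WT libraries, so the sums did not overlap.

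The calls of Mcm6 and Pcna held in every one of 15 other settings (adjusted p 0.000546 to 0.00639 for Mcm6 and 0.000249 to 0.00563 for Pcna). Those of Rrm2, Tk1 and Uhrf1 were lost without certain single libraries, although their log2 fold changes stayed below 0. Rrm2 was not called without Fyco1-/- C (adjusted p = 0.0598), WT A (adjusted p = 0.0584) or WT B (adjusted p = 0.0517), in a range of 0.00502 to 0.0598, with log2 fold changes of -0.86, -0.78 and -0.90 there. Tk1 was not called without Fyco1-/- B (adjusted p = 0.0677), Fyco1-/- C (adjusted p = 0.0984), WT A (adjusted p = 0.0897) or WT B (adjusted p = 0.116). The log2 fold changes of Tk1 there were -0.57, -0.45, -0.54 and -0.44. Over the single libraries left out, the adjusted p of Tk1 ran from 0.0274 to 0.116. Uhrf1 was not called without Fyco1-/- A (adjusted p = 0.0697), Fyco1-/- C (adjusted p = 0.0624), WT A (adjusted p = 0.0961) or WT B (adjusted p = 0.101), in a range of 0.012 to 0.101, with log2 fold changes of -0.51, -0.60, -0.54 and -0.51 there. Without Fyco1-/- C, WT A or WT B the number of replication genes called lower was 2, and calls over all genes were 642, 612 and 607, against 1012 with all libraries.

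Near-identical pseudogenes, matching over 100 bases or more with an identity of 95% or higher, also exist for Mcm6, Rrm2 and Uhrf1. For Uhrf1 the match with Gm5648 spans 1590 bases, for Rrm2 the longest match spans 419 bases and for Mcm6 it spans 182 bases. Mcm7, Cdc6, Rfc5 and Tyms have such pseudogenes too, which makes 8 of the 44 genes. With partners of any other kind at the same limits there are 17, Tk1 among them with a longest match of 127 bases, so the split of reads is uncertain for these 17 genes. By exon overlap of at least 50 bases, 14 of the 44 share bases with a gene of the opposite strand, among them Lig1 and Tk1.

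Other genes of DNA replication, from a list of 53 that were no members, showed 0 lower and 1 higher among 47 tested. The exception was Dbf4, the regulatory partner of the CDC7 kinase that fires origins, which had 7.13, 7.10 and 8.37 FPKM in Fyco1-/- lenses and 5.25, 5.52 and 5.22 FPKM in WT lenses (log2 0.46, limma adjusted p = 0.00851). Their median log2 fold change was -0.11, with 32 below 0 and 15 above. At an unadjusted p under 0.05, 15 were lower and 2 higher, beside 15.1% and 9.32% of all tested genes. Of 40 mitosis genes 4 fell and 1 rose, with a median of -0.24. Aurkb, the kinase of the chromosomal passenger complex, had 1.69, 1.47 and 1.21 FPKM in Fyco1-/- lenses and 3.63, 2.89 and 2.33 FPKM in WT lenses (adjusted p = 0.0107). Aurka, the spindle pole kinase, rose, with 4.96, 5.32 and 4.75 FPKM in Fyco1-/- lenses and 3.53, 3.71 and 2.47 FPKM in WT lenses (adjusted p = 0.0238). Of 23 tested genes of G1 control 4 fell (17.4%, beside the same 5.02%) and none rose, with a median of -0.17. They were the cyclin genes Ccnd2 (log2 -0.36) and Ccnd1 (log2 -0.25), the CDK inhibitor gene Cdkn1c (log2 -0.38) and Mycn (log2 -0.23).

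Markers of the lens epithelium, where the dividing lens cells lie, fell in part. Of 16 tested lens epithelium genes 6 fell (37.5%, beside 5.02% of all tested genes) and none rose. Their median log2 fold change was -0.21, and 13 were below 0 and 3 above. The highest of the 3 was Gja1, a gap junction subunit, which was not called (log2 0.22, limma adjusted p = 0.2), and none of the 17 on the list was at 0. The summed level of that list was 639 to 690.2 FPKM in Fyco1-/- lenses and 751 to 804 FPKM in WT lenses. Among them Itga6, a laminin receptor subunit, had a log2 fold change of -0.70 (limma adjusted p = 4.97e-05) and Slc38a1, an amino acid transporter, one of -0.54 (adjusted p = 0.00313). Per 100 FPKM of the epithelium list, Mcm6 stood at 0.181 to 0.200 in Fyco1-/- lenses and 0.335 to 0.417 in WT lenses, and Pcna 1.10 to 1.26 in Fyco1-/- lenses and 1.67 to 1.70 in WT lenses. On the same scale Rrm2 stood at 0.151 to 0.291 in Fyco1-/- lenses and 0.324 to 0.454 in WT lenses. Tk1 stood at 0.255 to 0.309 in Fyco1-/- lenses and 0.341 to 0.435 in WT lenses. Uhrf1 stood at 0.229 to 0.312 in Fyco1-/- lenses and 0.322 to 0.423 in WT lenses. The groups of each gene stayed apart (exact permutation p = 0.1 for each, the smallest possible). These ratios restate levels already given, because the list sum differed less between genotypes than these genes did. Of 18 lens fibre genes 4 fell (22.2%) and 2 rose, beside 5.02% and 3.42% of all tested genes. Log2 fold changes of the fibre genes ran from -1.52 to 0.25, with a median of 0.00. Cdkn1c, named above, was among those that fell. The summed level of the fibre list lay the other way, at 171310 to 175274 FPKM in Fyco1-/- lenses and 161031 to 165717 FPKM in WT lenses, without overlap. A few abundant genes weigh most in that sum. Crygb, a gamma crystallin gene that rose, held 49271 to 51308 FPKM of it in Fyco1-/- lenses and 41565 to 42835 FPKM in WT lenses. The part of epithelium and fibre cells in the replication genes was not tested. In whole lenses, fewer cells of a type and less RNA per cell cannot be told apart.

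Markers of other cells near the lens, those of the fetal vessels and of mesenchyme, were detected too, and whether those cells divided was not measured. Of 13 endothelium genes 1 was called lower (7.69%, beside 5.02% of all tested genes). It was Plvap, with 2.90, 3.41 and 3.05 FPKM in Fyco1-/- lenses and 5.46, 4.67 and 4.05 FPKM in WT lenses (limma adjusted p = 0.0195). The list summed to 46.1 to 53.0 FPKM in Fyco1-/- lenses and 49.9 to 65.5 FPKM in WT lenses, with overlap. Of 12 tested pericyte and mesenchyme genes none was called, and 5 were lower at an unadjusted p under 0.05, beside 15.1% of all tested genes. The 15 on that list summed to 42.2 to 45.7 FPKM in Fyco1-/- lenses and 44.8 to 58.0 FPKM in WT lenses. None of 6 tested macrophage and leukocyte genes and none of 5 tested erythroid genes was called. Macrophage and leukocyte genes summed to 4.27 to 6.11 FPKM in Fyco1-/- lenses and 4.57 to 11.4 FPKM in WT lenses, and erythroid genes to 102 to 241 FPKM in Fyco1-/- lenses and 81.4 to 195 FPKM in WT lenses. Lists of retina with ciliary body and of cornea each summed to under 4 FPKM in every library. None of the markers found in the table was at 0 in all 6 libraries. The part of these other cells in the replication genes was not tested.

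**Figure D5:**
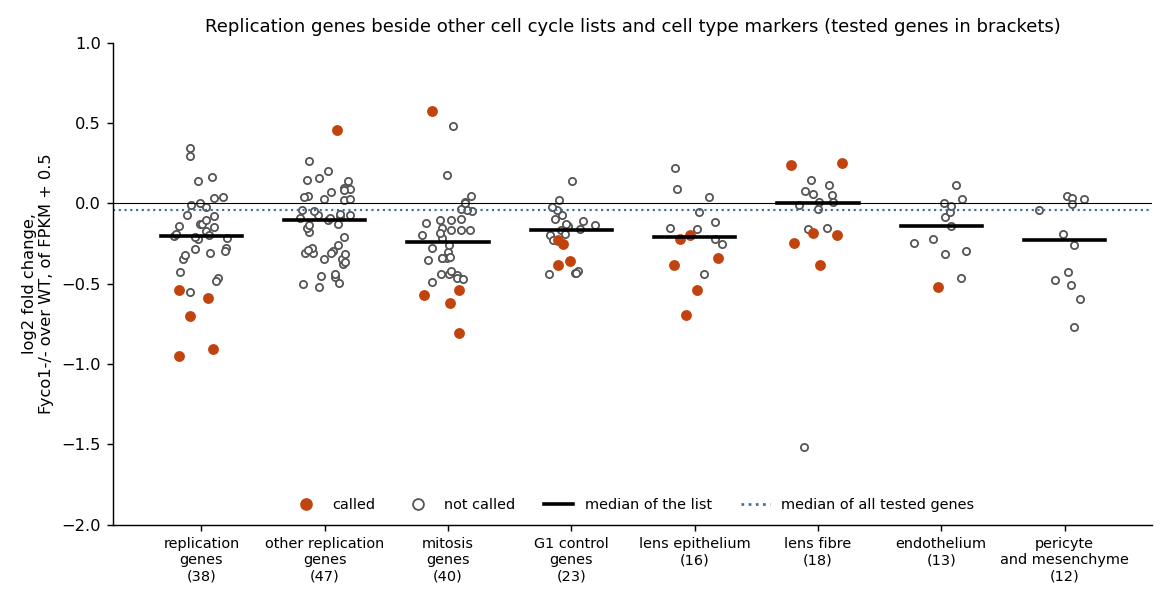
Log2 fold changes of FPKM + 0.5, Fyco1-/- over WT, of each tested gene in the replication list and in other cell cycle and cell type lists, with the number tested in brackets, called genes filled and the median of each list as a bar. The medians of the replication (-0.20), mitosis (-0.24) and lens epithelium (-0.21) lists lie below the median of all tested genes (dotted line, -0.04), and that of the lens fibre list lies at 0.00.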

How the data were processed

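RNA-seq libraries were made from total RNA of postnatal day 0 lenses with a NEB Next Ultra kit, per the labels' protocols. Per the submitters' processing notes, reads were aligned to GRCm38/mm10 with STAR 2.5 and counted per gene with HTSeq 0.6.1, and the authors deposited FPKM values with 1 column per library. The total behind the scaling, the gene annotation and the use of strand are not given in the sources used here. The authors also deposited log2 fold changes, and p-values and adjusted p-values, from DESeq2, per the labels. No table of raw reads was used.

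Values of the 12001 of 22298 entries with a mean of at least 0.5 FPKM entered, as log2(FPKM + 0.5), a limma fit (version 3.58.1, R 4.3.3) whose single term was genotype. Variances were moderated robustly with a trend, and tests were two-sided. The p-values set the difference between genotypes against a variance between pools that borrows from all tested genes. Fold changes of FPKM + 0.5 understate those of low genes. The letters A, B and C were not used to pair the libraries in this fit. Nothing in the labels says that these pools share litters or days. Depth was estimated by taking GENCODE M21 exon lengths and finding the smallest read total at which small values become whole reads (51.6% within 0.05 of a whole read), so read numbers are estimates and no counting intervals are given. Near-identical transcripts were sought with blastn 2.17.0. The fit was also run on simulated data with noise drawn independently for each gene and library. That run does not cover variation that the genes of a library share. The members and gene lists were chosen with earlier results of these data known. Named are all called members, MCM2-7, Pcna, Rrm1, Rrm2, Tyms and the E cyclins in full, the other members more briefly, and up to 4 called genes (or 2 genes where none was called) of each further list, not all of which are printed. Pcna-ps2 was added after its values were seen. Alternatives were pseudocounts of 0.1 and 1, no filter, a mean of at least 2 FPKM, no robust moderation, 3 other scalings, a replicate block, and leaving out libraries in turn.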

Additional observations from a re-analysis of the deposited data

How the results depend on the processing

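Under 15 other settings the number of replication genes called lower was 5 or 6 except with no filter on low values (2), with a mean of at least 2 FPKM (8, where only 8560 genes were tested and Mcm4, Lig1 and Dut were added) and without single libraries (2 to 6). Replication genes called higher were 0 everywhere but without Fyco1-/- A, where Rfc3 was called (0 to 1 over the libraries left out). Calls over all genes were 1012, against 568 with no filter and 607 to 863 without single libraries. The median log2 fold change of the tested members stayed negative in every setting. Median-of-ratios scaling moved the median of all genes to 0.00 and that of the members to -0.16, with the same 5 genes called. Values near 0 changed sign: Mcm5 was 0.0156 with median-of-ratios scaling, 0.0498 with quantile normalization and -0.11 to 0.0572 without single libraries. Mcm3 was 0.0034 with quantile normalization and -0.17 to 0.0218 without single libraries, and Ccne2 was -0.0135 to 0.0761 without single libraries. Without a filter Rrm2 (adjusted p = 0.0556), Tk1 (adjusted p = 0.0892) and Uhrf1 (adjusted p = 0.0801) lost their calls, and more genes were tested. The pairing check gave correlations of deviations of -0.03, 0.03 and 0.03 for A, B and C, and such correlations cannot see a shift common to all genes. Over all tested genes C was most often the lowest in both genotypes (45.9% in Fyco1-/- and 50.7% in WT). A was most often the highest in both (42.3% and 42.5%). Whether libraries of the same letter were handled together is therefore not settled. With the replicate block 6 replication genes were called lower (Lig1 was added), 0 higher, and 929 genes in all. Depth limits the genes under 1 FPKM, several of which rest on fewer than 50 estimated reads.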
